A study of Mus musculus with 6 samples.

Results

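Rab genes encode small GTPases that mark the membranes of the secretory and endocytic routes. They were taken from the deposited expression table by name: Rab followed by 1 or 2 digits and at most 1 lowercase letter. This gave 59 genes among 53774 lines with a gene name, and none of these Rab names stood on more than 1 line. The table holds RNA levels of sorted muscle macrophages (CD45-positive and F4/80-positive), collected when muscle injured with BaCl2 was at day 3 of repair. Every mouse, controls included, had the genotype Cx3cr1-CreER, Manf fl/fl: the Cx3cr1 promoter drives a Cre that tamoxifen switches on, and Manf can be cut out by it. There were 3 libraries of oil-treated and 3 of tamoxifen-treated mice, called oil 1 to 3 and tamoxifen 1 to 3 here. The labels name neither the mouse behind a library nor its age or sex, so p-values measure the spread between libraries, which may be technical. Cre can act only in cells that use the Cx3cr1 promoter. In bulk RNA of sorted cells, fewer cells of a type and less RNA per cell cannot be told apart.

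Each Rab protein alternates between a GTP-bound form, which sits on a membrane and recruits effectors such as tethers and motors, and a GDP-bound form, which GDP dissociation inhibitors hold in the cytosol. Guanine nucleotide exchange factors (GEFs) switch a Rab on, GTPase-activating proteins (GAPs, mostly of the Tbc1d family) switch it off, and a geranylgeranyl transferase adds its lipid anchors. In macrophages a phagosome first carries Rab5 and then Rab7 on its way to lysosomes, and other Rabs serve transport from the endoplasmic reticulum (ER) through the Golgi, recycling of receptors to the surface and the release of granules.

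Sequences just before the start sites are shown for the Rab genes with the smallest p in each direction, Rab6a and Rab7 (higher with tamoxifen) and Rab34 and Rab13 (lower), so that their promoters can be read beside the levels that follow. Each line gives the 250 bases upstream of the RefSeq start site (GRCm38.p6), 5′ to 3′ on the strand of the gene, with CCAAT and TGACGT, on either strand, in capitals. For Rab6a that start site lies 176 bases inside the annotated gene.
Rab6a, chr7:100607336-100607585, plus strand: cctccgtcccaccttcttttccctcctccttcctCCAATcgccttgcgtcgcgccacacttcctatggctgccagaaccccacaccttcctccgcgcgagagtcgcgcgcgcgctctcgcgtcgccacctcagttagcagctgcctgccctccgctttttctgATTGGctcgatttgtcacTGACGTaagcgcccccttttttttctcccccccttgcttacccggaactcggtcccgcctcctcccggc
Rab7, chr6:88045271-88045520, minus strand: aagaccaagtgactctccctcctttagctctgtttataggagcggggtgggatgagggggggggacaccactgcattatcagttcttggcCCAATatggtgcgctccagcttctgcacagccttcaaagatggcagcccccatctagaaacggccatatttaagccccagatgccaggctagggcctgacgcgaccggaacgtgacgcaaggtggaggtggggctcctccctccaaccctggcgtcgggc
Rab34, chr11:78188177-78188426, plus strand: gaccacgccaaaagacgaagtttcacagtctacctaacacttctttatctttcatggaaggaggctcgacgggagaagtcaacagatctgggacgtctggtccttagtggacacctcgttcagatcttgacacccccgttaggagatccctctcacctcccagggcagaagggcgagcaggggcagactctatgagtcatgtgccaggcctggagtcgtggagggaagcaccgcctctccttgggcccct
Rab13, chr3:90213465-90213714, plus strand: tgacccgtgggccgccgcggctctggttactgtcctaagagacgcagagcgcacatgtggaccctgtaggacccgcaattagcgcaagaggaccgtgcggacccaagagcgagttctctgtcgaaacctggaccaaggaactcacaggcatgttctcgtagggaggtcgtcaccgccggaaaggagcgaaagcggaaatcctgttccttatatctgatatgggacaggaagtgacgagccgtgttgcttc
Rab6a held 2 CCAAT boxes and 1 TGACGT, the core of a cyclic AMP response element. Rab7 held 1 CCAAT box, and the windows of Rab34 and Rab13 held neither motif. A RefSeq promoter was matched for 48 Rab genes. Of these, 22 held CCAAT (45.8%), against 33.9% of all 32851 promoters. TGACGT was in 7 (14.6%), against 6.47%: Rab5a, Rab21, Rab6a, Rab11b, Rab39, Rab25 and Rab3a. The E-box CACGTG, which can share 2 end bases with TGACGT, was in 4 (8.33%), against 6.02%: Rab20, Rab5a, Rab21 and Rab23. The ER stress element, a longer motif that begins with CCAAT, was in 0 Rab windows and in 0.113% of all promoters. Each count covers both strands and describes the letters of this window only. Rab genes enter with 1 promoter each, while the background takes every RefSeq promoter, so the shares are not like for like.

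Levels are given in FPKM, that is, fragments scaled to gene length and to library size, so they can be compared between genes. Library depth, recovered from the low values, ran from 18120333 to 25544666 reads. Manf, the targeted gene, had 29.5, 33.05 and 31.4 FPKM under oil, but 18.1, 42.5 and 37.98 FPKM in tamoxifen 1, 2 and 3, that is, below oil in tamoxifen 1 and above oil in tamoxifen 2 and 3, against what the labels imply. The labels do not say which exons Cre removes. Its log2 fold change was -0.02, with a limma-trend adjusted p of 0.976, and an exact two-sided permutation test gave p = 1, the smallest possible being 0.1. Without tamoxifen 1 the estimate for Manf was 0.35 (limma-trend adjusted p 0.0214), that is, higher and not lower under tamoxifen. Cx3cr1 stood at 51.7, 42.7 and 50.96 FPKM under oil and 31.3, 9.82 and 24.6 FPKM under tamoxifen. Tamoxifen 1 was the tamoxifen library nearest to the oil mean in 62.8% of the 10920 genes tested and in 22 of the 36 Rab genes tested. Counts are therefore given with and without it, as are the results of some genes. That library was singled out from these same values, and leaving out the tamoxifen library nearest to oil favours larger differences. Calls made without it are a description and no separate support.

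Most Rab RNA of these macrophages came from endosomal and early secretory Rabs. Summed over the 59 genes, the level was 1521, 1508 and 1545 FPKM under oil and 1530.1, 1667 and 1578 FPKM under tamoxifen, with overlap. Rab7, which drives late endosomes and phagosomes towards lysosomes, had the highest mean at 254 FPKM, followed by the early endosomal Rab5c at 239 FPKM. These 2 genes made up 29.7% to 33.98% of the summed Rab level of a library. Next came Rab1 (the deposited name of Rab1a) and Rab1b, which act between the ER and the Golgi, at 120.01 and 100.3 FPKM. Rab8b, Rab7b, Rab20 and Rab31 followed with means of 83.1, 76.5, 69.5 and 67.5 FPKM, and each of these overlapped over the libraries with the next in this order. By role, the 7 Rabs of early endosomes and phagosomes held 31.1% of the summed level. The 8 of late endosomes, lysosomes and autophagy held 26.95%, the 14 of the ER and Golgi 22.5%, and the 14 of recycling and delivery to the plasma membrane 17.7%. The 9 Rabs of regulated secretion held 0.8497% and the 7 others 0.868%. Of the 59 genes, 36 reached the mean of 1 FPKM needed for testing, 20 were detected below it and 3 were at 0 in every library.

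**Figure D1:**
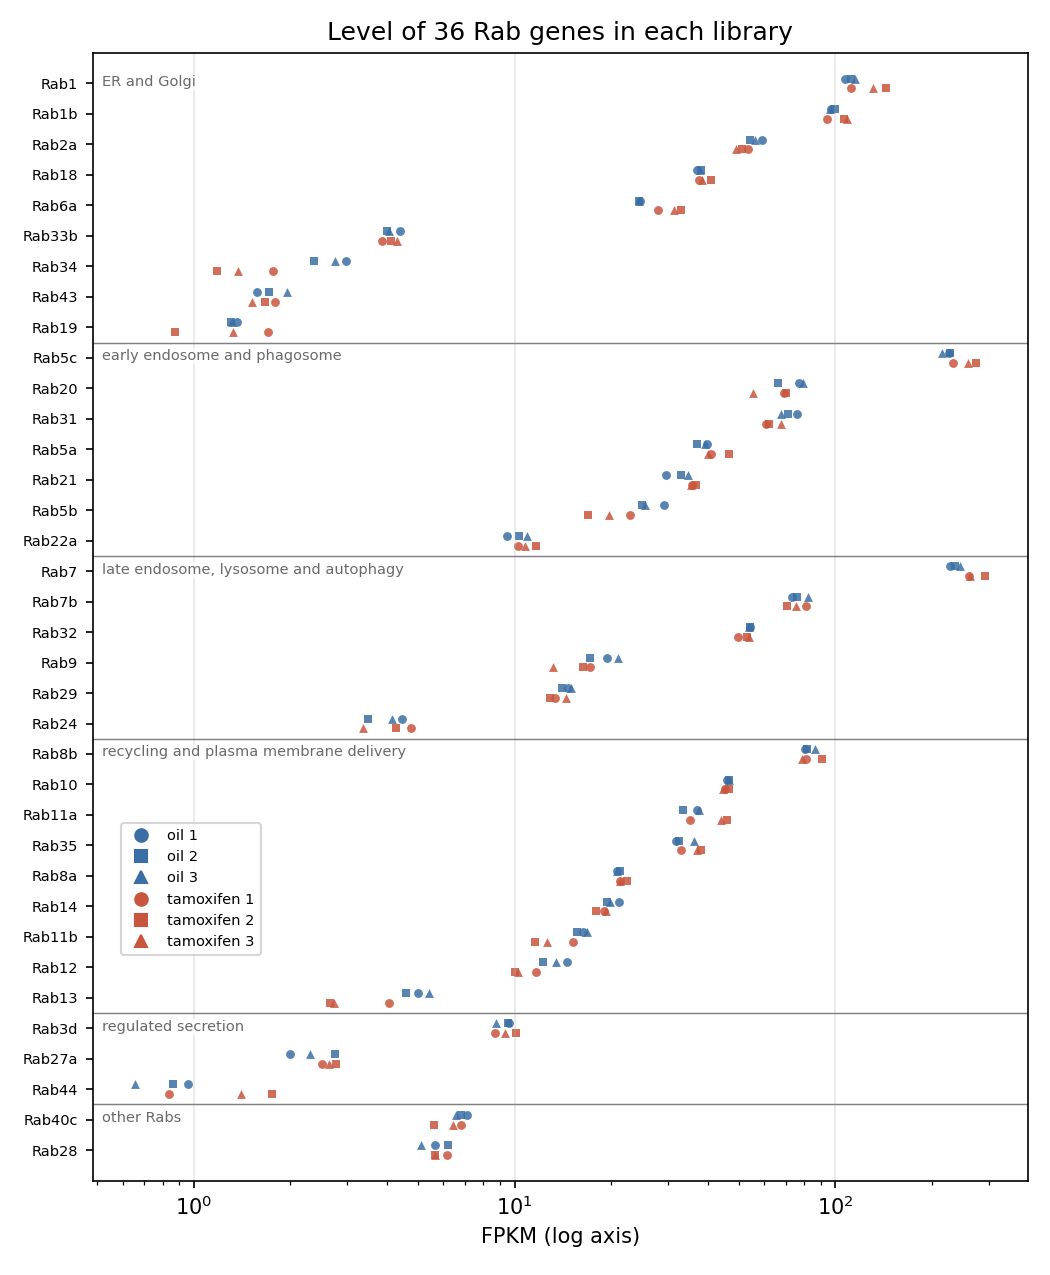
FPKM (log axis) of the 36 tested Rab genes, grouped by role and ordered by mean level, with 1 point per library (blue, oil; red, tamoxifen; the shape gives the library number). Rab7 and Rab5c lie highest, and the tamoxifen points of Rab6a lie to the right of the oil points while those of Rab34, Rab13 and Rab5b lie to the left.

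The comparison of tamoxifen with oil asks which Rab transcripts differ once Manf should be missing from Cx3cr1-expressing macrophages. As every mouse had the same genotype, effects of tamoxifen itself, of active Cre and of Manf loss cannot be told apart. No Rab gene passed: limma-trend called 0 of 36 higher and 0 lower at an adjusted p under 0.05, where 0.0% of all genes passed in either direction, and the smallest adjusted p of a Rab gene was 0.147. Limma-voom on recovered reads called 0 of the 29 Rab genes it could test, where 0.0% of all its 9934 genes passed. Limma with library weights, like limma-voom added after seeing the data, called 6 higher (background 24.8%) and 8 lower (background 18.7%). At an unadjusted p under 0.05 there were 2 Rab genes higher (background 13.2% of all genes) and 6 lower (background 11.7%), together 22.2% against 24.9%. The higher pair was Rab6a and Rab7, and the 6 lower were Rab34, Rab13, Rab12, Rab5b, Rab11b and Rab9. All tamoxifen libraries lay above all oil libraries in 5 Rab genes (background 16.2%) and below them in 10 (background 13.8%), together 41.7% against 29.9%. Of the fold changes, 18 lay above 0, which is 50% where 53.7% of all genes did. Rab44, which reached the filter only through the tamoxifen libraries, is among these 18. The median log2 fold change was -0.00 for Rab genes and 0.02 over all genes. Its median size, whatever the sign, was 0.11 against 0.16, and 2 Rab genes exceeded 0.5 in size, where 9.39% of all genes did.

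Without tamoxifen 1, limma-trend called 5 Rab genes higher (background 17.4%) and 5 lower (background 14.5%), together 27.8% against 31.9% of all genes. Rab6a, Rab1, Rab11a and Rab5c were higher in that fit, and Rab13, Rab34, Rab11b, Rab5b and Rab12 were lower. The remaining call, Rab44, is counted in these shares but is no result: the gene reached the filter only through the tamoxifen libraries kept there. Rab7, Rab9 and Rab2a were not called in that fit (limma-trend adjusted p 0.051, 0.0623 and 0.0941). Nor were Rab21, Rab20, Rab5a and Rab31 (0.181, 0.181, 0.184 and 0.189), and the estimate of Rab31 moved from -0.17 to -0.14. Leaving out any other single library gave 0 calls among Rab genes and 0 over all 10920 genes.

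**Figure D2:**
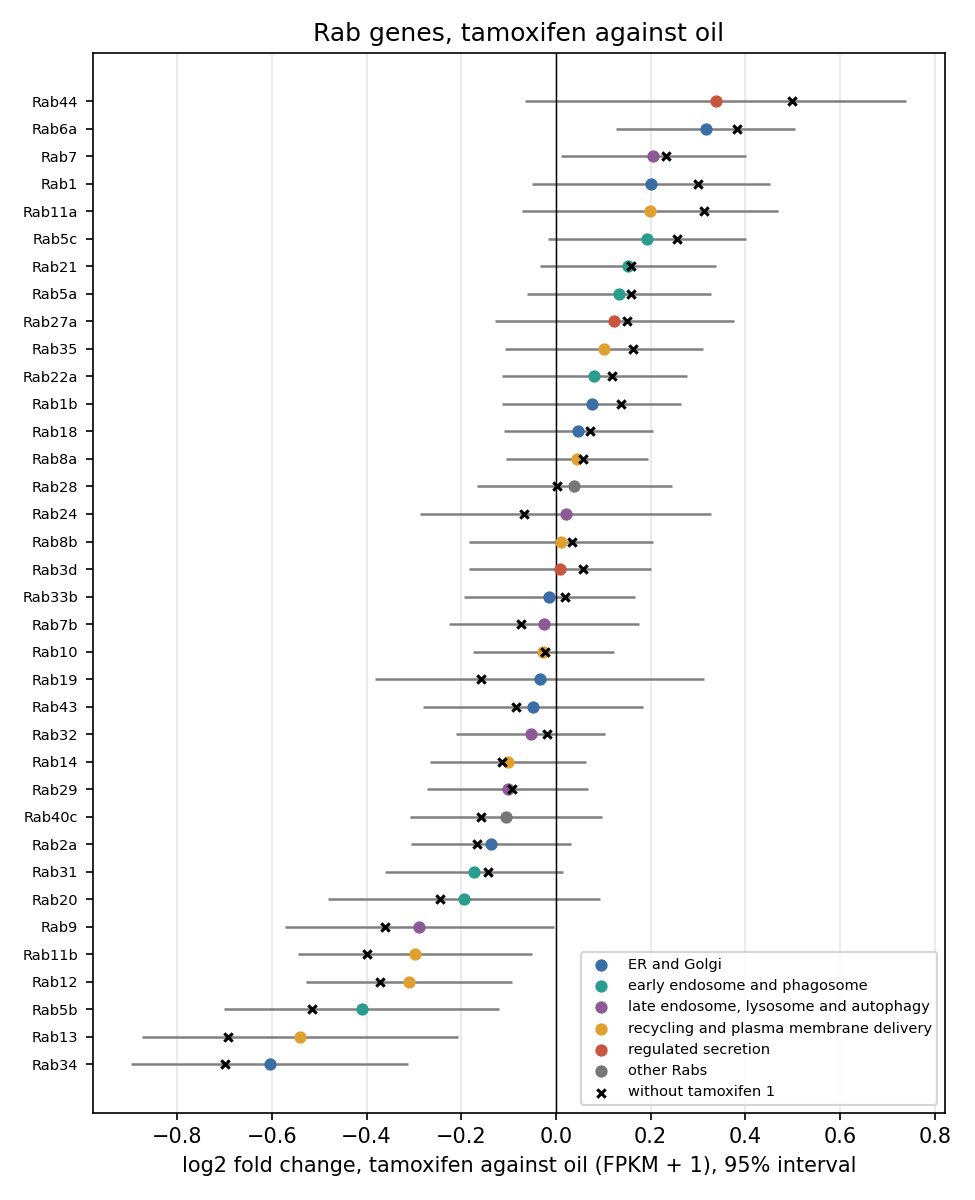
Log2 fold change on the FPKM + 1 scale of the 36 tested Rab genes, tamoxifen against oil, with 95% intervals from limma-trend (dots coloured by role, 3 libraries per group); crosses leave out tamoxifen 1. Estimates run from -0.60 for Rab34 to 0.34 for Rab44, and the intervals of Rab34, Rab13, Rab5b, Rab12, Rab11b, Rab9, Rab6a and Rab7 do not include 0.

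Marker sums of macrophages and of some other cell types also differed between oil and tamoxifen, while those of fibroblasts and endothelial cells overlapped. Of 8 listed macrophage markers, 7 had a line, Ptprc (CD45) and Adgre1 (F4/80) among them, and none was at 0. Their sum, led by Lyz2 and Cd68, was 10723 to 12413 FPKM under oil and 8515 to 9639 FPKM under tamoxifen. Of the 7 fold changes, 1 lay above 0. Adgre1 by itself overlapped, at 384, 346 and 329 FPKM under oil and 369, 304 and 313 FPKM under tamoxifen. B cell markers (6, led by Ighm and Cd79b, none at 0 throughout) summed to 29.6 to 35.99 FPKM under oil but 24.02, 9.24 and 11.4 FPKM in tamoxifen 1, 2 and 3. Dendritic cell markers (9, none at 0 throughout) summed to 7.47 to 13.7 and 4.72 to 4.95 FPKM, and T and NK cell markers (10, with Ncr1 at 0) to 5.61 to 7.698 and 3.18 to 3.56 FPKM. Muscle cell markers (8) summed to 5.96 to 11.3 and 2.11 to 3.88 FPKM, fibroblast markers (7) to 23.6 to 25.9 and 15.9 to 38.1 FPKM, and endothelial markers (6) to 5.504 to 7.12 and 6.21 to 6.98 FPKM. Members did not all follow their sum: 1 of 3 tested B cell, 1 of 3 dendritic cell and 1 of 2 T and NK cell markers had a fold change above 0. For muscle cells it was 0 of 2. The part of these cell types in the Rab levels was not tested.

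Among the ER and Golgi Rabs, Rab6a stood higher and Rab34 lower under tamoxifen. Rab6a (chromosome 7, 100607410 to 100641268, plus strand, GRCm38), which acts in transport within and back from the Golgi, read 24.6, 24.4 and 24.4 FPKM under oil and 27.96, 33.03 and 31.4 FPKM under tamoxifen. All tamoxifen libraries lay above the narrow oil range, tamoxifen 1 by the least. This is a log2 fold change of 0.32 with an SE of 0.08 and a limma-trend adjusted p of 0.148, or 0.38 without tamoxifen 1 (adjusted p 0.00683). Mrpl48, on the opposite strand and at 3.47 FPKM, shares 18.99% of its exon bases, and whether the counting used strand is not known here.

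Rab34 (chromosome 11, 78188430 to 78192193, plus strand), known from the Golgi, macropinosomes and phagosome maturation, read 2.98, 2.37 and 2.76 FPKM under oil and 1.77, 1.18 and 1.38 FPKM under tamoxifen. The groups did not overlap, and tamoxifen 1 was the tamoxifen library closest to oil. Mean FPKM was 1.88-fold higher under oil, and the estimate was -0.60 log2 units, SE 0.12, at a limma-trend adjusted p of 0.147. Without tamoxifen 1 it was -0.70 (adjusted p 0.007301), and limma-voom on all libraries gave -0.91 (adjusted p 0.112).

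Rab1 (chromosome 11, 20201432 to 20226856, plus strand), needed for traffic from the ER to the Golgi, read 107, 112 and 115 FPKM under oil and 111, 143 and 131 FPKM under tamoxifen. Tamoxifen 1 lay inside the oil range and the other two above it. The estimate of 0.20 log2 units (SE 0.11) had a limma-trend adjusted p of 0.2697, against 0.30 and 0.0216 without tamoxifen 1. Its close relative Rab1b read 96.99, 99.4 and 96.3 FPKM under oil and 94.5, 106 and 108 FPKM under tamoxifen, again with tamoxifen 2 and 3 above oil and tamoxifen 1 not.

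Rab2a, another Rab of the route between ER and Golgi, read 58.95, 54.2 and 56.03 FPKM under oil and 53.3, 51.2 and 49.1 FPKM under tamoxifen. Every tamoxifen library lay below every oil library, and the log2 fold change was -0.14 (SE 0.07, limma-trend adjusted p 0.262). The other tested Rabs of this role overlapped between groups. Rab18, of the ER and lipid droplets, had 37.6 ± 0.538 FPKM under oil and 38.9 ± 1.72 FPKM under tamoxifen (mean ± SD over 3 libraries, as below). Rab33b, a Golgi Rab that binds the autophagy protein Atg16l1, had 4.16 ± 0.203 and 4.11 ± 0.219 FPKM. Rab43 had 1.75 ± 0.1896 and 1.66 ± 0.136 FPKM, and Gm45140, on the same strand, shares 75.4% of its exon bases, so its level is uncertain. Rab19 was even under oil, at 1.33 ± 0.03396 FPKM, and read 1.701, 0.876 and 1.33 FPKM under tamoxifen, on both sides of oil.

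**Figure D3:**
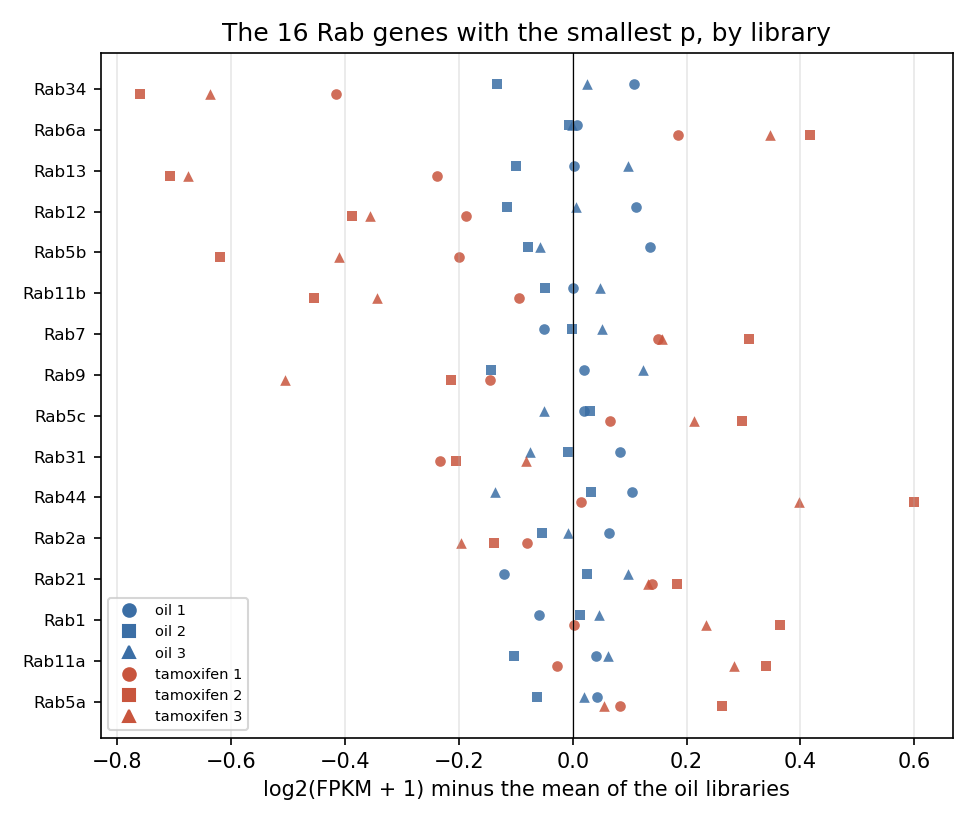
Log2(FPKM + 1) of each library minus the mean of the oil libraries for the 16 Rab genes with the smallest p, ordered by p from the top (blue, oil; red, tamoxifen; the shape gives the library number). In Rab1, Rab11a and Rab44 tamoxifen 1 lies within the oil range while tamoxifen 2 and 3 lie above it, and in Rab34, Rab13 and Rab5b tamoxifen 1 lies between oil and the other two.

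The 7 Rabs of early endosomes and phagosomes were all tested, and 5 of them had groups that did not overlap (background 29.9% of all genes): Rab5c, Rab5a and Rab21 above oil, Rab5b and Rab31 below. Rab5c (chromosome 11, 100715009 to 100738215, minus strand), which with its relatives governs the fusion of early endosomes, read 226, 227 and 215 FPKM under oil and 233, 274 and 258 FPKM under tamoxifen. Tamoxifen 1 was above oil by a small margin only. The log2 estimate was 0.19 (SE 0.09, limma-trend adjusted p 0.21998), and 0.26 without tamoxifen 1 (adjusted p 0.0251). Rab5a read 39.8, 36.9 and 39.1 FPKM under oil and 40.9, 46.5 and 40.1 FPKM under tamoxifen, close to oil except in tamoxifen 2.

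Rab5b (chromosome 10, 128677175 to 128696264, minus strand), the remaining form of Rab5, stood on the other side: it read 29.2, 25.05 and 25.4 FPKM under oil and 22.96, 16.9 and 19.7 FPKM under tamoxifen. Every tamoxifen library was below every oil library, tamoxifen 2 the lowest. The difference came to -0.41 log2 units (SE 0.12, limma-trend adjusted p 0.153), and to -0.52 without tamoxifen 1 (adjusted p 0.0128).

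Rab31, which carries cargo between the Golgi and endosomes, read 75.9, 71.1 and 67.8 FPKM under oil and 60.7, 61.9 and 67.5 FPKM under tamoxifen. Tamoxifen 3 was barely below oil, the other two clearly (-0.17 log2 units, SE 0.08, limma-trend adjusted p 0.222). Rab21, known from integrin traffic, read 29.7, 32.9 and 34.7 FPKM under oil and 35.8, 36.9 and 35.6 FPKM under tamoxifen, above oil throughout. Rab20, a Rab of phagosome maturation in macrophages, read 76.8, 66.3 and 79.3 FPKM under oil and 69.2, 70.1 and 55.2 FPKM under tamoxifen. Its groups overlapped, and the 95% interval of its log2 fold change ran from -0.48 to 0.09. E230013L22Rik, on the opposite strand, shares 25.6% of its exon bases. Rab22a, of early endosomes, had 10.3 ± 0.728 and 10.9 ± 0.706 FPKM.

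Of the late endosomal and lysosomal Rabs, Rab7 (chromosome 6, 87999106 to 88045270, minus strand) read 228, 236 and 244 FPKM under oil and 262, 293 and 263 FPKM under tamoxifen. All tamoxifen libraries, tamoxifen 1 included, lay above oil. The log2 estimate was 0.21 (SE 0.08) at a limma-trend adjusted p of 0.189, and the adjusted p without tamoxifen 1 was 0.05102. The pseudogene Rab7-ps1 was listed at 21.8, 21.97 and 23.7 FPKM under oil and 26.1, 30.7 and 24.4 FPKM under tamoxifen, so reads may be split between the copies and the level of Rab7 is uncertain.

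Rab9 (X chromosome, 166457253 to 166479867, minus strand), which returns receptors from late endosomes to the Golgi, read 19.45, 17.24 and 20.97 FPKM under oil and 17.23, 16.38 and 13.20 FPKM under tamoxifen. Tamoxifen 1 and oil 2 were nearly equal, and only tamoxifen 3 was far below oil (-0.29 log2 units, SE 0.12, limma-trend adjusted p 0.197). Rab7b, a late endosomal Rab that limits Toll-like receptor signalling in macrophages, read 73.2, 75.8 and 82.4 FPKM under oil and 81.04, 70.8 and 75.6 FPKM under tamoxifen. These groups overlapped, with a 95% interval of -0.22 to 0.18 log2 units. Rab32, of lysosome-related organelles, was even under oil at 54.2, 54.3 and 53.98 FPKM and just below that under tamoxifen at 49.7, 53.1 and 53.7 FPKM. Rab29, a partner of the kinase Lrrk2, had 14.6 ± 0.484 and 13.5 ± 0.798 FPKM. Rab24, linked to autophagy, had 4.04 ± 0.498 and 4.13 ± 0.707 FPKM, but 62.4% of its exon bases lie opposite exons of Prelid1, at 80.4 FPKM, so its level is uncertain.

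In the recycling and delivery group, 4 of the 9 tested Rabs lay below oil in every tamoxifen library (background 13.8% of all genes): Rab13, Rab12, Rab11b and Rab14. Rab13 (chromosome 3, 90213695 to 90226385, plus strand), known from the delivery of proteins to cell junctions, read 4.99, 4.58 and 5.395 FPKM under oil and 4.07, 2.66 and 2.74 FPKM under tamoxifen. Tamoxifen 2 and 3 were well below oil and tamoxifen 1 part of the way. The estimate was -0.54 log2 units (SE 0.14, limma-trend adjusted p 0.148), against -0.69 without tamoxifen 1 (adjusted p 0.00426).

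Rab12 (chromosome 17, 66494512 to 66519729, minus strand), which sends the transferrin receptor to degradation, read 14.6, 12.3 and 13.5 FPKM under oil and 11.7, 10.01 and 10.3 FPKM under tamoxifen. The groups were separate, and the log2 fold change was -0.31 (SE 0.09, limma-trend adjusted p 0.153), or -0.37 without tamoxifen 1 (adjusted p 0.0203). Rab14, which acts between the Golgi and endosomes, had 20.2 ± 0.887 and 18.7 ± 0.7203 FPKM.

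Rab11a and Rab11b, close relatives on the recycling endosome, stood on opposite sides of oil. Rab11a (chromosome 9, 64715299 to 64737758, minus strand) read 37.1, 33.5 and 37.7 FPKM under oil and 35.3, 45.9 and 44.1 FPKM under tamoxifen. Tamoxifen 1 lay among the oil libraries and the other two above them, which gave 0.20 log2 units (SE 0.11, limma-trend adjusted p 0.302), and 0.31 without tamoxifen 1 (adjusted p 0.0234). Rab11b (chromosome 17, 33742484 to 33760530, minus strand) read 16.3, 15.7 and 16.9 FPKM under oil and 15.2, 11.6 and 12.6 FPKM under tamoxifen. Here tamoxifen 1 was just under oil and the other two well below, which gave -0.30 log2 units (SE 0.10, limma-trend adjusted p 0.163), and -0.40 without tamoxifen 1 (adjusted p 0.00947). The pseudogene Rab11b-ps2 was listed at 11.2, 13.3 and 12.6 FPKM under oil and 10.02, 9.74 and 9.92 FPKM under tamoxifen, not far below the gene, so the level of Rab11b is uncertain.

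The abundant Rabs that bring membrane proteins to the cell surface overlapped between groups. Rab8b read 80.5, 81.4 and 86.2 FPKM under oil and 80.8, 90.9 and 78.7 FPKM under tamoxifen. Rab10 had 46.3 ± 0.456 and 45.5 ± 1.07 FPKM, with a 95% interval of -0.17 to 0.12 log2 units, and Rab8a 21.02 ± 0.306 and 21.7 ± 0.669 FPKM, with an interval of -0.11 to 0.19. Rab35, of fast recycling, had 33.6 ± 2.403 and 36.1 ± 2.68 FPKM.

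Rabs of regulated secretion were scarce. Rab3d, found on secretory granules, had 9.31 ± 0.474 and 9.38 ± 0.719 FPKM, and Rab27a, which docks granules at the plasma membrane, 2.35 ± 0.3796 and 2.64 ± 0.135 FPKM. Rab44 (chromosome 17, 29114145 to 29148980, plus strand), a large Rab known in mice from mast cells and osteoclasts, read 0.958, 0.863 and 0.657 FPKM under oil and 0.8397, 1.76 and 1.399 FPKM under tamoxifen. It reached the mean of 1 FPKM only through tamoxifen 2 and 3, and tamoxifen 1 lay among the oil libraries. Its difference is therefore given as levels, and its estimate and p are no result. The 14 neutrophil markers, none at 0 throughout, summed to 51.5 to 55.4 FPKM under oil and to 56.5, 369.8 and 114 FPKM in tamoxifen 1, 2 and 3. S100a8 read 2.64, 3.04 and 1.52 FPKM under oil and 4.12, 154 and 40.4 FPKM under tamoxifen, and S100a9 0.826, 2.07 and 0.525 and 0.696, 119.9 and 25.5 FPKM. The other 12 markers summed to 49.5 to 51.3 FPKM under oil and to 51.6, 96.3 and 47.6 FPKM under tamoxifen, so that their sum was above oil in tamoxifen 2 and below it in tamoxifen 3. Among these 12, Csf3r was lower in tamoxifen 2 and 3, at 27.3, 28.7 and 28.2 FPKM under oil and 30.3, 15.2 and 14.6 FPKM under tamoxifen, and Lcn2 higher, at 0.123, 0.196 and 0.0746 and 0.363, 33.6 and 8.59 FPKM. Ly6g, a defining marker, was at 0 in every library but tamoxifen 2, where it read 0.176 FPKM. The part of neutrophils in the level of Rab44 was not tested. Of the Rabs with other roles, Rab40c, part of a ubiquitin ligase, had 6.83 ± 0.255 and 6.29 ± 0.616 FPKM, and Rab28, known from cilia, 5.65 ± 0.537 and 5.82 ± 0.304 FPKM.

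The 20 Rab genes detected below the filter were not tested, and none had more than 95 reads in a library. In 4 of them every tamoxifen library lay below every oil library, and in 0 above, where this held for 7.0% and 3.69% of the 14981 genes detected below the filter. Rab38, the relative of Rab32 on lysosome-related organelles, read 1.196, 0.847 and 0.695 FPKM under oil and 0.576, 0.13998 and 0.297 FPKM under tamoxifen, from 35, 26 and 28 against 20, 4 and 11 reads. It had the widest range of all Rab genes on the log2(FPKM + 1) scale, 0.95 units. Rab4a, of early endosome recycling, had 0.858 ± 0.114 and 0.514 ± 0.0524 FPKM. Rab2b, the relative of Rab2a, had 0.712 ± 0.0486 and 0.385 ± 0.112 FPKM, and 59.3% of its exon bases lie opposite Gm43766. Rab39, linked to phagosomes and autophagy, had 0.658 ± 0.126 and 0.411 ± 0.0709 FPKM. In a fit without the filter none of the 4 passed (limma-trend adjusted p from 0.303 to 0.339). Rab33a, the relative of Rab33b, read 0.419, 0.799 and 0.507 FPKM under oil and 0.549, 1.14 and 0.883 FPKM under tamoxifen, with overlap. Rab4b, Rab6b and Rab23 had means of 0.466, 0.457 and 0.4097 FPKM over all libraries, and Gm21983, on the same strand, shares 64.97% of the exon bases of Rab4b. Rab42, Rab3b, Rab36, Rab15, Rab37, Rab25, Rab40b, Rab30, Rab26, Rab3a, Rab39b and Rab27b had means of 0.202 FPKM or less. Rab3c, of synaptic vesicles, Rab9b, and Rab17, of polarized epithelia, had 0 reads in every library. A limit of 3 reads per library allows levels of up to 0.0137, 0.0416 and 0.0831 FPKM in the shallowest library, which covers counting error only.

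Relatives that share a Rab number were set against each other within each library, a ratio that a scaling of whole libraries does not move. There were 7 pairs with both members tested. In 4 of them the ratio was higher in every tamoxifen library than in every oil library, and in 3 the groups overlapped. Of the 4, 2 share Rab5b and are not separate observations, and the same was not computed for pairs of other genes. The log2 ratio of Rab5c to Rab5b was 2.95, 3.18 and 3.08 under oil and 3.34, 4.02 and 3.71 under tamoxifen. For Rab5a to Rab5b it was 0.45, 0.56 and 0.62, against 0.83, 1.46 and 1.03. Rab5b held 9.22 ± 0.641% of the summed Rab5 level under oil and 6.31 ± 1.37% under tamoxifen, while Rab5a held 13.4 ± 0.624% and 13.4 ± 0.674%. The log2 ratio of Rab11a to Rab11b was 1.19, 1.09 and 1.16 under oil and 1.22, 1.98 and 1.81 under tamoxifen, with tamoxifen 1 barely above oil. For Rab7 to Rab7b it was 1.64, 1.64 and 1.57, against 1.69, 2.05 and 1.80. The levels of Rab7 and Rab11b are uncertain because of their pseudogenes, and so are the ratios that hold them. The ratios of Rab1 to Rab1b, Rab8b to Rab8a and Rab5c to Rab5a overlapped. The fold changes were known when these pairs were formed, so the ratios are a description and were given no test.

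**Figure D4:**
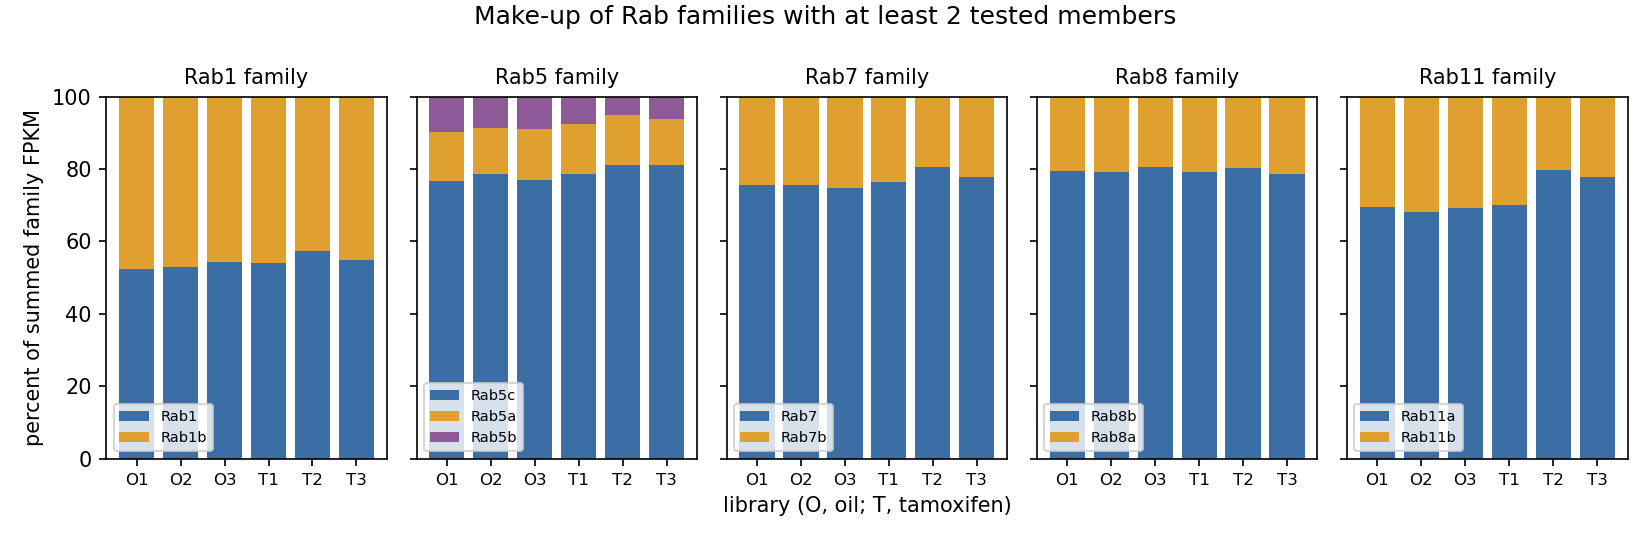
Percent of the summed FPKM of each Rab family held by its members, by library, for the 5 families with at least 2 tested members (bars start at 0; O, oil; T, tamoxifen). Rab11b holds 30.1% of its pair in tamoxifen 1, near the oil mean of 31.1%, but 20.2% and 22.2% in tamoxifen 2 and 3. Rab5b is lower in every tamoxifen library than in every oil library. The levels of Rab7 and Rab11b are uncertain because of their pseudogenes.

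Regulators and effectors of Rabs were listed from general knowledge, 160 genes of which 133 were tested. None passed: limma-trend called 0 higher and 0 lower at an adjusted p under 0.05, and limma-voom called 0, as over all genes. At an unadjusted p under 0.05, 7 were higher (5.26%, background 13.2% of all genes) and 23 lower (17.3%, background 11.7%). The median log2 fold change was -0.04, against 0.02 over all genes. Without tamoxifen 1, 8 were called higher (6.02%, background 17.4%) and 28 lower (21.1%, background 14.5%).

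Among the 30 tested exchange factors the median log2 fold change was -0.03. Hps4, which with Hps1 activates Rab32 and Rab38, read 10.5, 10.5 and 10.6 FPKM under oil and 9.003, 7.42 and 6.37 FPKM under tamoxifen, below oil throughout (-0.44 log2 units, limma-trend adjusted p 0.149). Rab3il1, an exchange factor of the Rabin family, had 47.9 ± 3.07 and 38.7 ± 3.69 FPKM, and Dennd4c, which acts on Rab10, stood higher, with 13.8 ± 1.64 and 17.4 ± 1.13 FPKM. In the TRAPP complexes, which activate Rab1 and Rab11, the 14 tested subunits had a median of 0.06 log2 units. The alternative subunits Trappc6a and Trappc6b lay on opposite sides of oil without overlap: Trappc6a had 8.13 ± 0.196 and 6.25 ± 0.593 FPKM, and Trappc6b 18.3 ± 1.07 and 21.3 ± 0.427 FPKM. Trappc4, a core subunit, had 10.98 ± 0.137 and 12.3 ± 0.911 FPKM.

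Among the 36 tested GAPs, 23 fold changes lay below 0 and 13 above (36.1%, background 53.7% of all genes). Their median was -0.05 log2 units. Tbc1d16, a GAP for Rab4a, read 5.15, 3.73 and 4.65 FPKM under oil and 2.68, 1.504 and 2.16 FPKM under tamoxifen, a difference of -0.83 log2 units (SE 0.17, limma-trend adjusted p 0.147). Tbc1d4, which acts on Rab10 in the traffic of glucose transporters, had 4.62 ± 0.606 and 2.72 ± 0.254 FPKM, and Tbc1d10a 14.4 ± 1.31 and 10.2 ± 1.498 FPKM. In these 3 genes, picked for the smallest p of the list, every tamoxifen library, tamoxifen 1 included, was below every oil library. Over all 36 GAPs the groups did not overlap in 25%, against 29.9% of all genes.

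Of the 11 genes for lipid attachment and membrane cycling, Gdi2, which keeps Rabs in the cytosol, read 85.9, 72.8 and 76.4 FPKM under oil and 68.8, 61.6 and 63.6 FPKM under tamoxifen, below oil throughout (-0.27 log2 units, limma-trend adjusted p 0.157). Rabggtb, a subunit of the geranylgeranyl transferase, had 15.2 ± 1.17 and 18.2 ± 2.04 FPKM with overlap, and Lrrk1, a kinase of Rab7, 6.56 ± 0.172 and 5.33 ± 0.402 FPKM. The 34 tested effectors had a median of -0.05 log2 units. Uso1, a tether recruited by Rab1, read 20.2, 22.2 and 22.9 FPKM under oil and 24.2, 35.2 and 32.1 FPKM under tamoxifen, above oil throughout (0.45 log2 units, SE 0.14, limma-trend adjusted p 0.155). Rubcn, which binds Rab7, had 6.53 ± 0.452 and 4.89 ± 0.621 FPKM, and Rilpl1, which binds phosphorylated Rab8 and Rab10, 3.24 ± 0.121 and 2.302 ± 0.438 FPKM. The 8 CORVET and HOPS tethers, which bind Rab5 and Rab7, had a median of -0.06 log2 units. Among them Vps41 had 15.3 ± 1.24 and 11.1 ± 1.73 FPKM without overlap, Vps39 6.48 ± 0.285 and 5.07 ± 1.29 FPKM with overlap, and Vps11 17.5 ± 1.33 and 18.997 ± 0.0696 FPKM.

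**Figure D5:**
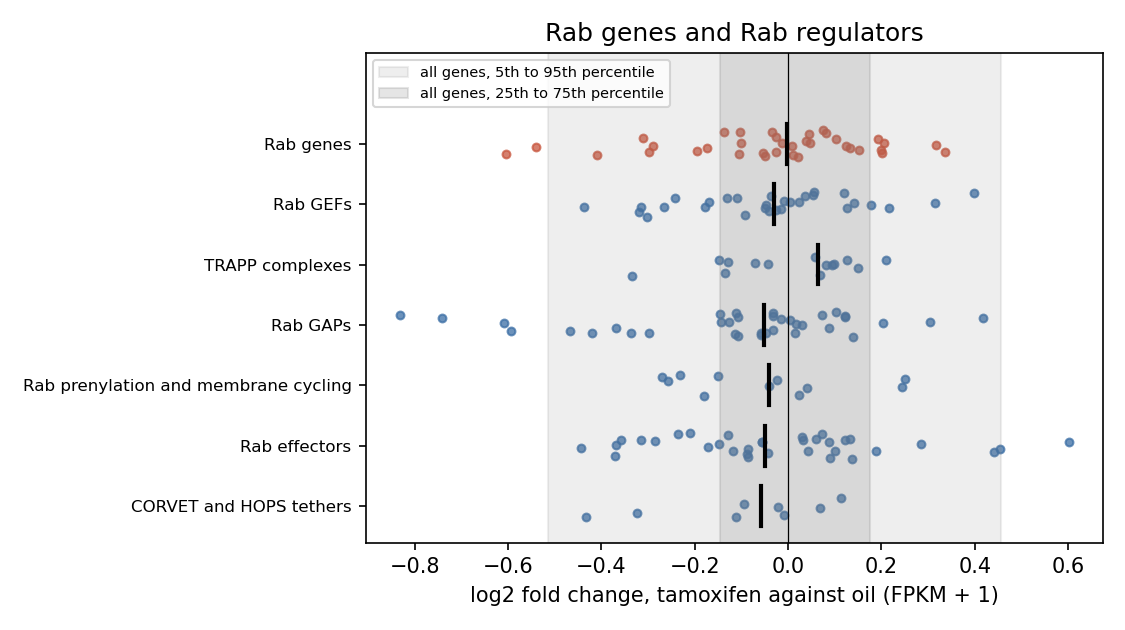
Log2 fold change, tamoxifen against oil, of the tested Rab genes (red) and of 6 lists of Rab regulators (blue), 1 point per gene, with the median of each list as a black bar. Grey bands give the central percentiles of all 10920 genes, the outer one from -0.51 to 0.46; the medians of the 6 lists lie between -0.06 and 0.06, and 5 of the 133 regulators exceed 0.5 in size.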

How the data were processed

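The authors deposited 1 table of FPKM values by gene and library, with 54183 lines. Its name and values give the unit, and the submitters' processing notes give the build, GRCm38.p6. How reads were aligned, counted and assigned to a strand is not stated in the labels. Left out were 409 lines with no name or with a calendar date as name, at most 0.289% of a library's FPKM. GENCODE M21 gave coordinates and exon lengths for all 59 Rab genes. FPKM times exon length gave whole reads (within 0.02) for 95.0% to 95.3% of values up to 1000 reads, and in all libraries for 52 Rab genes.

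Groups were compared by limma-trend on log2(FPKM + 1), a scale that understates changes of low genes, with no covariate. Genes entered at a mean of 1 FPKM or more (10920), with two-sided p-values, Benjamini-Hochberg adjustment over all of them and a threshold of 0.05. The fit was also run on simulated data in which each gene varied on its own. A library that stands apart, such as tamoxifen 1, was not simulated. Members, roles and lists were chosen with earlier results of these data known. Values by library are shown for the 12 Rab genes with the smallest p, the 8 with the highest mean and the 6 with the widest range, and 3 genes are named per regulator list by smallest p. Rab11a, Rab21, Rab5a, Rab32, Rab19 and Rab33a are shown that way in addition, chosen after their values were seen. Alternatives were other pseudocounts, filters, scalings and variance settings, a replicate block, each library left out, and, added after seeing the data, limma-voom and library weights. Promoters are RefSeq, the start site nearest to the annotated gene start. R 4.3.3, limma 3.58.1, Python 3.11.15 and pandas 2.3.3 were used.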

Additional observations from a re-analysis of the deposited data

How the results depend on the processing

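Of 18 alternatives, 16 gave 0 Rab genes and 0 regulators past the threshold in either direction. The exceptions were the fit without tamoxifen 1 and the fit with library weights. Over all genes, most of those 16 also called 0. Calls came only with no filter (1 lower), the filter at 5 FPKM (1 higher, 4 lower) and the replicate block (11 higher, 22 lower). Leaving out 1 library gave 0 to 5 Rab genes higher, 0 to 5 lower, 0 to 8 regulators higher and 0 to 28 lower, the upper ends all without tamoxifen 1. Library weights gave 6 Rab genes higher and 8 lower, and 11 regulators higher (8.27%, against 24.8% of all genes) and 35 lower (26.3%, against 18.7%). Rab44, which reached the filter only through tamoxifen 2 and 3, is among the higher Rab genes of both fits. The log2 fold change of Manf ran from -0.24 to 0.35 when 1 library was left out (0.02 without oil 2, 0.35 without tamoxifen 1), and was 0.23 with library weights. Without tamoxifen 1 its limma-trend adjusted p was 0.0214, and the tamoxifen libraries kept there lay above oil in Manf. The cause was not tested. The 16 Rab genes with the smallest p kept the sign of their fold change in all 280 values computed under the alternatives. These genes, Rab44 among them, were picked by p from the same libraries, so their sign had little room to change.

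Oil and tamoxifen share replicate numbers, and the labels do not say whether same-numbered libraries belong together. Their deviations correlated over genes with r = 0.261, 0.088 and 0.004, against -0.256 to 0.174 for the other combinations. These values cannot show whether the libraries were paired. The replicate block called 11 genes higher and 22 lower over all genes and 0 Rab genes, whose smallest adjusted p was 0.0713; Manf stood at -0.02. The untested Rab genes rest on fewer than 100 reads per library, which limits what can be seen of them.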
